A study of Mus musculus with 6 samples.

Results

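The genes described here are 39 imprinted genes of the mouse, chosen by name from the 46983 genes counted in embryonic hearts and grouped by the imprinted domain in which they lie. RNA was sequenced from whole E13.5 hearts of a C57BL/6 x DBA/2 background, 1 heart per library. The 3 mutant hearts (replicates 1, 5 and 10) were Tnnt2Cre/+;Wt1flox/flox. The 3 controls (replicates 2, 3 and 5), labelled wild type, also had both Wt1 alleles floxed but carried no Cre, per the methods of the study. The Tnnt2 promoter drives Cre in the cardiomyocyte lineage and also recombines in some of the epicardium, so in the mutants the deletion of Wt1, which encodes a zinc finger transcription factor, is directed to a fraction of the cells of the heart.

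An imprinted gene is transcribed from the copy inherited from one parent, because DNA methylation laid down in the egg or the sperm marks an imprinting control region of the domain. Neighbouring genes under one control region are often expressed from opposite parental copies, and a long noncoding RNA of the domain is commonly read from the copy on which the protein-coding genes are silent. Many imprinted genes act on fetal and placental growth, and several are abundant in the embryo and decline after birth. The counts sum both parental copies, so the expressed allele was not measured here and is given as background. In RNA from a whole heart, fewer cells of a type and less RNA per cell cannot be told apart.

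Promoter windows are shown for 4 genes whose values are described most closely, Peg3 and Zim1 of the Peg3 domain, Nnat and Mest. Each window runs from 250 bases before to 50 bases after a RefSeq start site (GRCm38.p6) and is printed in the direction of transcription, with TGCCGC, the core letters bound by the imprint-maintaining factor ZFP57, in capitals on either strand. The windows lie at chr7:6730370-6730669 (minus strand) for Peg3, chr7:6696383-6696682 (minus strand) for Zim1, chr2:157559828-157560127 (plus strand) for Nnat and chr6:30737800-30738099 (plus strand) for Mest. Mest has further RefSeq windows that are not printed, and the one at chr6:30733256-30733555 does not hold TGCCGC.
Peg3: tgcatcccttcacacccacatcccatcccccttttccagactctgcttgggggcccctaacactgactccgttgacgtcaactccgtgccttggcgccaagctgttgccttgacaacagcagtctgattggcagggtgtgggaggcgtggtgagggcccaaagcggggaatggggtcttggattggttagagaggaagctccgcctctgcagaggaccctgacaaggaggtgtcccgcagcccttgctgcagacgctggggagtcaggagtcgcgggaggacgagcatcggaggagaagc
Zim1: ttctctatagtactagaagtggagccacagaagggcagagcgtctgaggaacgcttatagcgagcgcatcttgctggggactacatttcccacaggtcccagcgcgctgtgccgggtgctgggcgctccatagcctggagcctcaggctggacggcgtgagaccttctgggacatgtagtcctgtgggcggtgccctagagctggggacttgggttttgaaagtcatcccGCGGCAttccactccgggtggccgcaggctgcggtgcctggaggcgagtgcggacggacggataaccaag
Nnat: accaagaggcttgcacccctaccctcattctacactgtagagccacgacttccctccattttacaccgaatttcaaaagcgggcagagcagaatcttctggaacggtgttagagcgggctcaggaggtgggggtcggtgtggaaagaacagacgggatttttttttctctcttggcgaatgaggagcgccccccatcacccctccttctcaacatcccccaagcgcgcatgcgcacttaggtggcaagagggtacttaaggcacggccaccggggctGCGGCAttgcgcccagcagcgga
Mest: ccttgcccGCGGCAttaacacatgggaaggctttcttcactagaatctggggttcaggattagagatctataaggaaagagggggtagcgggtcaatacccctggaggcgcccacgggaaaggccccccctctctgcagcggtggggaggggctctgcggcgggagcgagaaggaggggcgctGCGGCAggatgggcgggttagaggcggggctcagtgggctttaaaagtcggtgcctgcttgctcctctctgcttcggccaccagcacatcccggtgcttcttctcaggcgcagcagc

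The letters TGCCGC were found in 13 of the 42 windows that RefSeq gives for 31 of the 39 genes (31.0% of windows), and in 11.6% of all 32851 windows of the same length. These windows are not all separate, since neighbouring windows of Mest nearly coincide and Snrpn and Snurf have the same window. Counted by gene, the letters occurred in 12 of the 31 genes, against 3527 of the 27025 genes with a window. The median window of the imprinted genes held 14 CpG pairs, against 7 over all windows. The longer letters GCCATCTT, a core of the sites of the factor YY1, were searched on both strands as well and occurred in 1 of the 42 windows, that of Ube3a, against 2.75% of all windows. No window printed here holds both strings. The start sites of Peg3 and Usp29, which are transcribed away from each other, lie 164 bases apart, and their windows share 263 bases. A match is a description of the letters and not of binding.

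Some of the noncoding RNAs and protein-coding genes in the list also host microRNAs, short RNAs that pair with targets mainly through their seed (bases 2 to 8, in capitals). H19 hosts miR-675 and Mest hosts miR-335, and these are printed because their hosts have the highest levels of the list. In the Dlk1-Dio3 domain 14 microRNA genes lie in Mirg, 3 in Rian and 2 in Meg3, and another 6 lie opposite to Rtl1. The counts of a host do not measure its mature microRNAs.
miR-675-5p (H19): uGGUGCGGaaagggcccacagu
miR-675-3p (H19): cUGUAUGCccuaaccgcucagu
miR-335-5p (Mest): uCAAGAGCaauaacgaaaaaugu
miR-335-3p (Mest): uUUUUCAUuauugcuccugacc

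Libraries held between 44244665 and 56373393 counts per heart. Wild type replicate 5 had the fewest, and its levels followed gene length differently from the others (Spearman's rho of −0.56 between its deviation from the mean and gene length over 11795 genes, against −0.06 to 0.46 in the other 5 hearts). Results are therefore given with and without it. Wt1 itself stood at 39.97, 32.9 and 19.97 CPM (counts scaled to library size) in wild type replicates 2, 3 and 5 and at 17.7, 33.3 and 35.7 CPM in mutant replicates 1, 5 and 10, and these overlapping whole-gene counts of whole hearts do not check the labels. Cardiomyocyte markers summed to 21047 to 25439 CPM in wild type and 23801 to 26125 CPM in mutant hearts. Fibroblast and mesenchyme markers summed to 3274 to 4333 CPM in wild type and 4251 to 5652 CPM in mutant hearts, and 3 of the 10 had an unadjusted p under 0.05 (2 higher and 1 lower). Endothelial markers summed to 834 to 1233 CPM and 1099 to 1378 CPM, and all 8 had a log2 fold change above 0 (median 0.29), 1 of them with an unadjusted p under 0.05. Hepatocyte markers summed to 795 CPM in wild type replicate 3 and to between 3.3 and 22.8 CPM in the other hearts. All 7 tested had a log2 fold change below 0 (median −3.24), 4 of them with an unadjusted p under 0.05. The groups overlapped in CPM for each of the 7 hepatocyte markers tested. They did not overlap for 1 of the 10 cardiomyocyte, 3 of the 10 fibroblast and mesenchyme and 2 of the 8 endothelial markers, against 11.2% of all genes. Macrophage markers summed to 121 to 186 CPM in wild type and 218 to 229 CPM in mutant hearts. Of the 9 markers, 8 had an unadjusted p under 0.05 and 7 had groups that did not overlap, all of them higher in the mutant hearts. Erythroid markers were highest in wild type replicate 5 (38748 CPM) and mutant replicate 10 (42004 CPM). These unadjusted p-values are from edgeR's quasi-likelihood test, where 5.73% of all genes tested were under 0.05. In the same test 1 of the 10 cardiomyocyte markers and 0 of the 10 erythroid markers were under 0.05. Xist RNA was at 299 CPM or more in wild type replicate 2 and mutant replicates 5 and 10 and at 0.209 CPM or less in the other 3 hearts. The part of these differences in the values of imprinted genes was not tested.

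The hearts held most of the list at measurable levels. By mean FPKM over the 6 hearts (counts scaled to both gene length and library size), H19 and Mest were above 1000, 4 genes lay between 100 and 1000, 14 between 10 and 100, 7 between 1 and 10, and 12 under 1. The gene length behind the FPKM was 980 bases for Plagl1 and 1406 for Rian, where the annotated exons hold 7819 and 18234 bases. For Cdkn1c the lengths were 1912 and 2039 bases. Levels of different genes, and their order, therefore compare only roughly. H19 had a mean of 5093 FPKM and ranked between the 5th and the 9th of all genes by count in every heart. Together the 39 genes took between 1.10% (wild type replicate 5) and 1.48% (mutant replicate 5) of all counts. Snurf was listed at 0 counts in every heart, and all of its exon bases are shared with Snrpn and Gm38393, so reads there could not be given to it alone. Slc22a2, an organic cation transporter, had 0 to 3 counts a heart, which is at the detection floor of 3 counts.

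**Figure D1:**
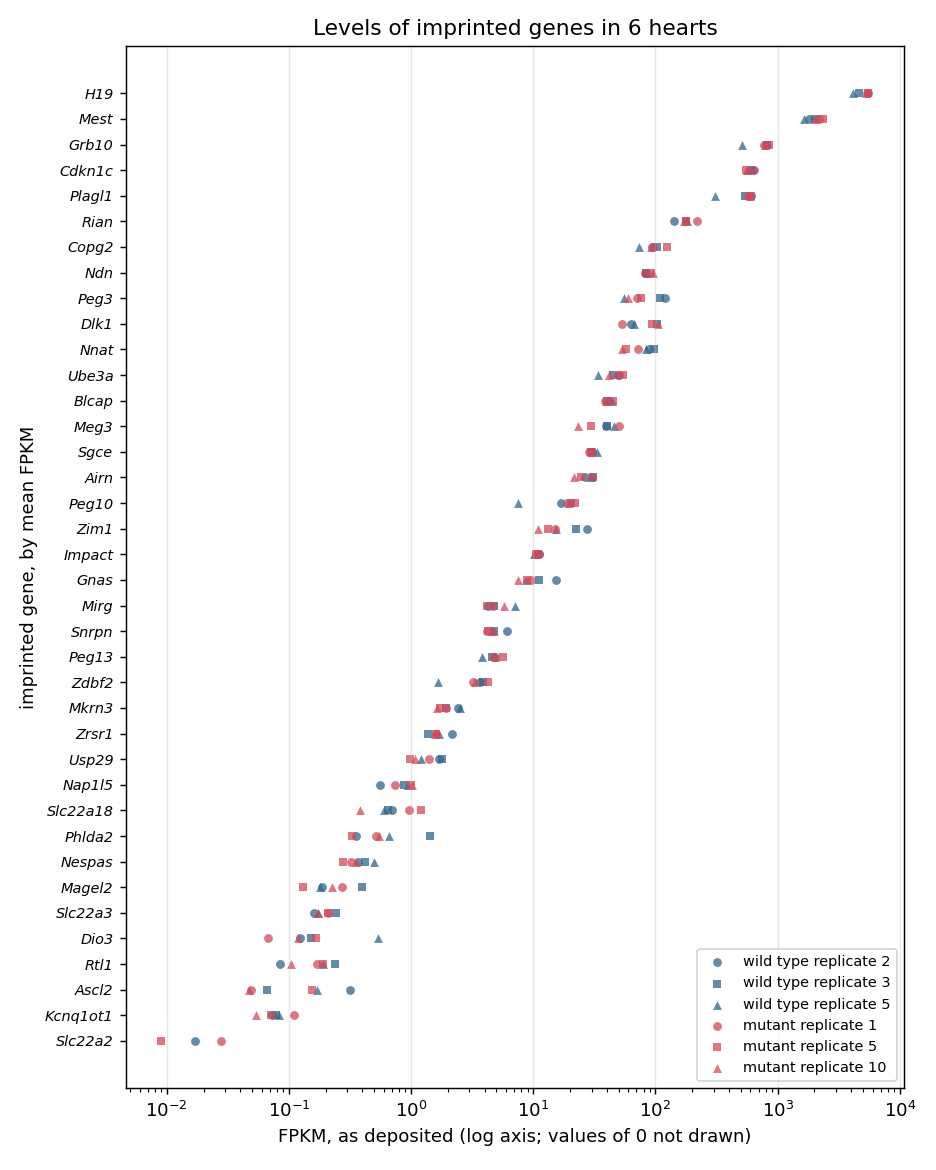
Deposited FPKM (log axis) of the 38 imprinted genes with a count in any heart, each point 1 heart (blue wild type, red mutant). H19 and Mest stand above 1000 FPKM and 11 of the genes drawn have a mean under 1. Genes close in level change places between hearts. Grb10 and Cdkn1c, for example, are at 810 and 625 FPKM in wild type replicate 2 and at 510 and 565 FPKM in wild type replicate 5.

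Of the 39 genes, 37 had enough counts to be tested for a difference between mutant and wild type hearts. None passed an adjusted p of 0.05 in edgeR's quasi-likelihood test, and neither did any of the 17473 genes tested (0%), where the smallest adjusted p was 0.0991. At an unadjusted p under 0.05 there were 3 imprinted genes (8.11%), against 5.73% of all genes tested. These were Zim1 and Nnat, with lower values in the mutant hearts (2.59% of all genes), and Mest, with higher values (3.14% of all genes). The same 3 genes had groups that did not overlap in CPM (8.11%), against 11.2% of all genes. The log2 fold change of mutant over wild type was above 0 for 17 genes and below 0 for 20, with a median of −0.0054, against −0.0010 over all genes tested. DESeq2 called 132 genes (0.66%) at an adjusted p under 0.05, of which Nnat was the 1 imprinted gene. Without wild type replicate 5, edgeR called 44 genes (0.247%), 2 of them imprinted, Peg3 and Zim1. Unadjusted p-values under 0.05 then numbered 6 among the imprinted genes, where 12.2% of all genes had one. DESeq2 without that heart called 447 genes (2.52%), among them Peg3, Zim1, Gnas and Nnat. With the trend of each heart with gene length removed, edgeR called 6 genes (0.0343%) and no imprinted gene, and 5 imprinted genes had an unadjusted p under 0.05 (6.85% of all genes).

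**Figure D2:**
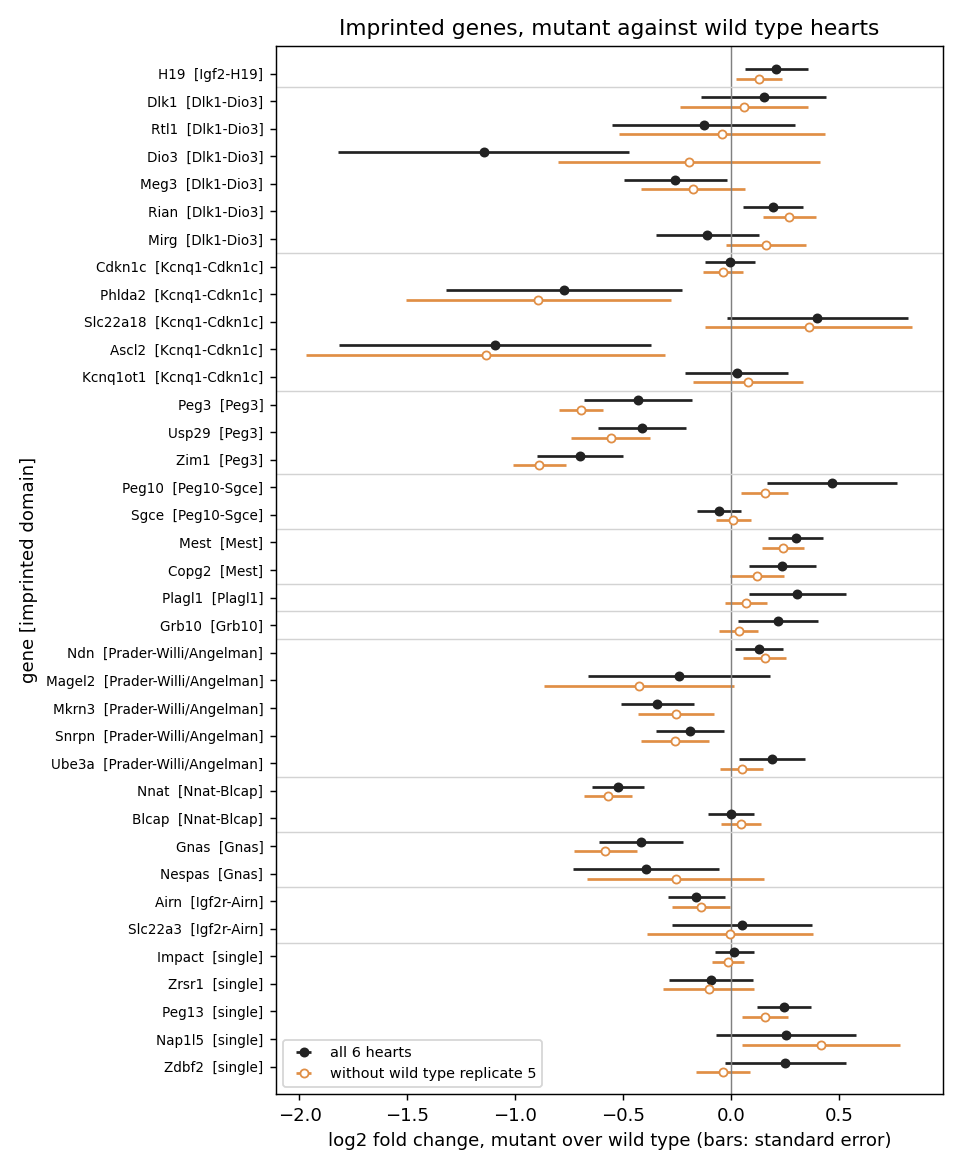
Log2 fold change of mutant over wild type hearts (x axis, bars the standard error) of the 37 imprinted genes tested, by domain (y axis, "single" for genes in none of the listed domains), with all 6 hearts (filled) and without wild type replicate 5 (open). All 3 genes of the Peg3 domain lie below 0 in both fits.

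In the Peg3 domain all 3 members had lower mean values in the mutant hearts, with a median log2 fold change of −0.43. Values of single hearts are listed from here on in the order wild type replicates 2, 3 and 5, then mutant replicates 1, 5 and 10. Zim1 (ENSMUSG00000002266, chr7:6671269-6696450, minus strand, GRCm38), a zinc finger gene expressed from the maternal copy, was at 111, 89.8 and 63.4 CPM in wild type and 60.9, 54.4 and 47.3 CPM in mutant hearts. Every mutant heart was below every wild type heart, though mutant replicate 1 lay close under wild type replicate 5. The means were 88.0 ± 23.7 and 54.2 ± 6.78 CPM (SD, n = 3 each), a log2 fold change of −0.70 with a standard error of 0.20 and, in edgeR's quasi-likelihood test, an adjusted p of 0.595.

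Peg3 (ENSMUSG00000002265, chr7:6703892-6730431, minus strand), a paternally expressed zinc finger protein known for its effects on growth and maternal behaviour, was at 513, 466 and 245 CPM in wild type and 306, 329 and 273 CPM in mutant hearts. Wild type replicate 5 had the lowest level of all 6 hearts, so the groups overlapped, while the other 2 wild type hearts were above every mutant heart. With all of them the log2 fold change was −0.43 (standard error 0.25, edgeR adjusted p = 0.952). Without wild type replicate 5 it was −0.69 (standard error 0.10, edgeR adjusted p = 0.0423), and that of Zim1 was −0.89 (standard error 0.12, edgeR adjusted p = 0.0404). Both calls thus rest on leaving out that 1 heart.

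Usp29, a paternally expressed gene of the ubiquitin-specific protease family that starts beside Peg3, was far lower, at 6.89, 7.18 and 4.9985 CPM in wild type and 5.62, 4.03 and 4.69 CPM in mutant hearts. Wild type replicates 2 and 3 were again the highest, and wild type replicate 5 lay among the mutant hearts. Its log2 fold change was −0.41 (edgeR adjusted p = 0.920). The exons of Usp29 share 14.8% of their bases with other genes, chiefly Zim3 on the opposite strand. The ratio of Peg3 to Zim1 in CPM lay between 3.86 and 6.05 in the 6 hearts, with wild type replicate 5 at the low end and mutant replicate 5 at the high end.

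Nnat and its host gene Blcap are transcribed on opposite strands of chromosome 2, where Nnat lies within Blcap. Nnat (ENSMUSG00000067786, chr2:157560078-157562522, plus strand), a paternally expressed small membrane protein of the endoplasmic reticulum, was at 74.7, 80.8 and 70.8 CPM in wild type and 60.5, 48.9 and 47.8 CPM in mutant hearts. The groups did not overlap, and wild type replicate 5 was close to the other wild type hearts. The means were 75.4 ± 5.04 and 52.4 ± 7.01 CPM (SD, n = 3 each), and the log2 fold change was −0.53 (standard error 0.12), with an adjusted p of 0.403 in edgeR and 0.0435 in DESeq2. Blcap, an apoptosis-related gene, was at 39.2, 37.96 and 42.5 CPM in wild type and 36.5, 43.2 and 39.8 CPM in mutant hearts, which overlapped throughout. The ratio of Nnat to Blcap was 1.91, 2.13 and 1.66 in wild type and 1.66, 1.13 and 1.201 in mutant hearts, with wild type replicate 5 and mutant replicate 1 nearly level. Nnat is well known in neurons, and the 10 neuron and neural crest markers summed to 30.9 to 37.99 CPM in wild type and 26.7 to 33.1 CPM in mutant hearts, and 8 of the 10 had a log2 fold change below 0. The median of the list was −0.43, and −0.073 without wild type replicate 5. At an unadjusted p under 0.05 in edgeR there were 1 marker higher and 1 lower (20% of the list), against 5.73% of all genes tested. The part of these cells in the level of Nnat was not tested.

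Mest (ENSMUSG00000051855, chr6:30723547-30748465, plus strand), a paternally expressed protein of the hydrolase family abundant in mesoderm, was the gene of the list with separate groups and higher values in the mutant hearts. It was at 1909.7, 2103 and 1763 CPM in wild type and 2296, 2513 and 2301 CPM in mutant hearts. Every mutant heart was above every wild type heart. Their log2 fold change over wild type was 0.30, with a standard error of 0.13 (edgeR adjusted p = 0.860). Copg2, a coatomer subunit that runs against Mest and shares 17.8% of its exon bases with it, was at 144, 157 and 116 CPM in wild type and 147, 193 and 151 CPM in mutant hearts. These groups overlapped, and the log2 fold change was 0.24 (edgeR adjusted p = 0.968). The summed fibroblast and mesenchyme markers were highest in mutant replicates 5 and 10, and their part in the level of Mest was not tested. How reads on the shared bases were assigned is uncertain, because the strand setting of the counting was not stated.

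**Figure D3:**
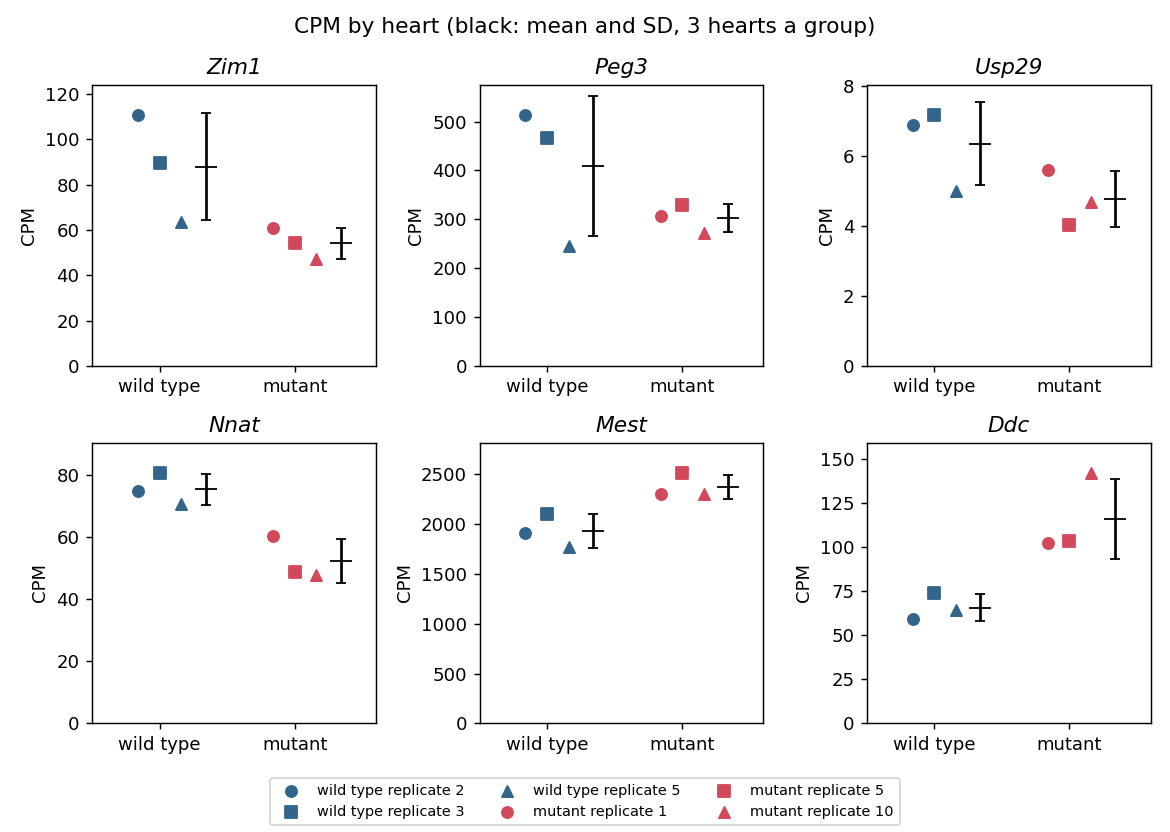
CPM (y axis, from 0) in each heart for the 3 genes of the Peg3 domain, Nnat, Mest and Ddc, with the mean and SD of 3 hearts a group in black. The groups are apart for Zim1, Nnat, Mest and Ddc, and for Peg3 and Usp29 the triangle of wild type replicate 5 lies among or below the mutant hearts.

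In the Dlk1-Dio3 domain the mutant hearts differed widely among themselves for Dlk1 and Meg3. Dlk1 had an SD of 60.6 around a mean of 172 CPM in mutant hearts and of 43.8 around 155 CPM in wild type hearts (n = 3 each). Meg3 had an SD of 35.4 around 93.2 CPM in mutant hearts and of 10.8 around 112 CPM in wild type hearts. For Rian, Mirg, Rtl1 and Dio3 the SD was larger in the wild type hearts. Dlk1, a paternally expressed transmembrane protein of the Notch ligand type, was at 125, 205 and 135 CPM in wild type and 105, 187 and 223 CPM in mutant hearts. Mutant hearts held both the lowest and the highest level, and the log2 fold change was 0.15 (standard error 0.29, edgeR adjusted p = 0.985). Without mutant replicate 10 it was −0.082, so its direction rests on that heart. Meg3, the maternally expressed noncoding RNA of the domain, was at 105, 106 and 124 CPM in wild type and 133, 79.8 and 66.4 CPM in mutant hearts. Here mutant replicate 1 was highest and mutant replicate 10 lowest, the reverse of Dlk1, and the log2 fold change was −0.26 (edgeR adjusted p = 0.985). The ratio of Dlk1 to Meg3 in CPM was 1.19, 1.93 and 1.09 in wild type and 0.788, 2.34 and 3.36 in mutant hearts.

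Rian, a maternally expressed RNA downstream of Meg3 that hosts small nucleolar RNAs, was at 198, 247 and 258 CPM in wild type and 302, 249 and 253 CPM in mutant hearts. Mutant replicate 1 was the highest heart, as for Meg3, but replicates 5 and 10 were not low. Its log2 fold change was 0.19 (standard error 0.14, edgeR adjusted p = 0.979). Mirg, the microRNA host at the end of this series of RNAs, was at 6.82, 7.60 and 11.7 CPM in wild type and 7.56, 6.77 and 9.88 CPM in mutant hearts, with wild type replicate 5 highest. Rtl1, a gene derived from a retrotransposon, had 30 to 86 counts a heart, and Dio3, which inactivates thyroid hormone, had 6 to 41. For both the groups overlapped, and the 41 counts of Dio3 were those of wild type replicate 5.

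**Figure D4:**
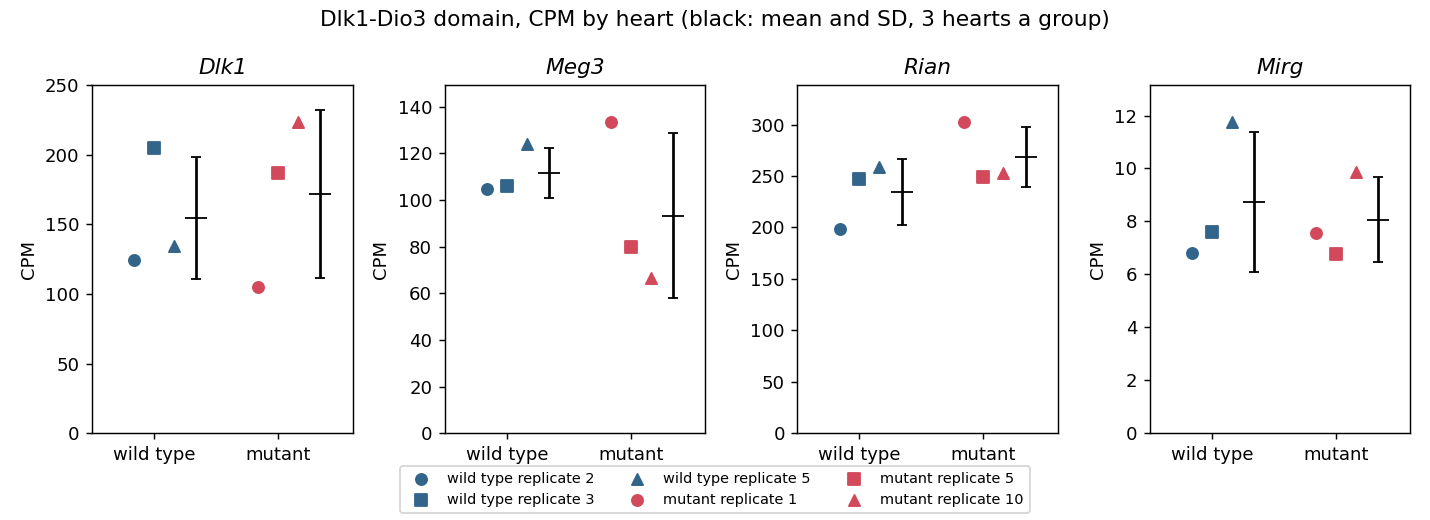
CPM (y axis, from 0) in each heart for Dlk1, Meg3, Rian and Mirg of the Dlk1-Dio3 domain, with the mean and SD of 3 hearts a group in black. Mutant replicate 1 (red circle) is lowest for Dlk1 and highest for Meg3 and Rian, and mutant replicate 10 (red triangle) is highest for Dlk1 and lowest for Meg3.

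The 2 domains on distal chromosome 7 held some of the highest and some of the lowest genes of the list. H19, a maternally expressed noncoding RNA that lies beside Igf2, was at 6871, 5818 and 5307 CPM in wild type and 6680, 7007 and 7129 CPM in mutant hearts. Wild type replicate 2 lay within the mutant range, and the log2 fold change was 0.21 with a standard error of 0.14 (edgeR adjusted p = 0.975). Igf2, the growth factor on the paternal copy, was not on the list and was at 7778, 6734 and 5812 CPM in wild type and 7003, 7520.4 and 7823 CPM in mutant hearts. Its order of hearts resembled that of H19 in that wild type replicates 3 and 5 were the lowest for both genes. The log2 fold change of Igf2 was 0.14 (edgeR adjusted p = 0.985). Igf2 shares 64.5% of its exon bases with other annotated genes. Most of these bases (62.8% of its exon bases) are shared with Gm49394, which is not among the genes counted. The share with Igf2os, which was counted, is 1.71%.

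In the Kcnq1 domain, Cdkn1c, a maternally expressed inhibitor of cyclin-dependent kinases that limits cell division in the embryonic heart, was at 1178, 1145 and 1086 CPM in wild type and 1200.4, 1059 and 1136.5 CPM in mutant hearts. The groups covered nearly the same range, with means of 1136 ± 47.0 and 1132 ± 70.7 CPM (SD, n = 3 each) and a log2 fold change of −0.0054 (standard error 0.12, edgeR adjusted p = 0.998). Kcnq1ot1, the paternally expressed RNA antisense to Kcnq1, was at 6.02, 6.52 and 6.998 CPM in wild type and 9.08, 6.05 and 4.75 CPM in mutant hearts, and mutant hearts were both the highest and the lowest. Kcnq1, a potassium channel subunit and no member of the list, had a log2 fold change of 0.091 (edgeR adjusted p = 0.989). Phlda2, Slc22a18 and Ascl2, which are known for their roles in placenta and trophoblast, had 4 to 68 counts a heart, and all 3 overlapped between the groups.

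Plagl1 and Grb10 were high in every heart and lowest in wild type replicate 5. Plagl1, a paternally expressed zinc finger transcription factor, was at 591, 524 and 304 CPM in wild type and 547, 597 and 611 CPM in mutant hearts. Grb10, an adaptor that restrains insulin and growth factor receptors, was at 1612, 1615 and 1034 CPM in wild type and 1545, 1720.5 and 1691 CPM in mutant hearts. Without wild type replicate 5 the log2 fold change of Plagl1 went from 0.31 to 0.070, and that of Grb10 from 0.22 to 0.034. Peg10, a paternally expressed gene of retrotransposon origin, was at 109.8, 133 and 50.4 CPM in wild type and 123, 145 and 137 CPM in mutant hearts, and its log2 fold change likewise went from 0.47 to 0.16. None of these 3 genes passed the threshold in either fit, and in each at least 1 of the remaining wild type hearts lay within the mutant range.

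Sgce, the sarcoglycan gene that faces Peg10 across a shared promoter region, did not follow its partner. It was at 56.9, 55.8 and 64.4 CPM in wild type and 53.2, 57.7 and 59.4 CPM in mutant hearts, with wild type replicate 5 the highest heart. The ratio of Peg10 to Sgce was 0.783 in wild type replicate 5 and between 1.93 and 2.51 in the other 5 hearts. The log2 fold change of Sgce was −0.057 (standard error 0.10, edgeR adjusted p = 0.985).

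The Prader-Willi/Angelman domain, named for the human syndromes of its region, had 5 genes tested and none at an unadjusted p under 0.05. Ndn, a paternally expressed protein of the MAGE family, was its highest gene at 137, 135 and 143 CPM in wild type and 134, 153 and 166 CPM in mutant hearts (log2 fold change 0.13, standard error 0.11, edgeR adjusted p = 0.985). Ube3a, a ubiquitin ligase that is imprinted in neurons and read from both copies elsewhere, was at 118, 105 and 80.9 CPM in wild type and 114, 128 and 105 CPM in mutant hearts (log2 fold change 0.19, standard error 0.15, edgeR adjusted p = 0.985). Both genes overlapped between the groups. Mkrn3, a makorin ring finger gene, had a log2 fold change of −0.34 (edgeR adjusted p = 0.924), from 6.04, 4.83 and 6.43 CPM in wild type and 4.85, 4.39 and 4.41 CPM in mutant hearts. Snrpn, which encodes a splicing protein and shares 34.1% of its exon bases with other genes, had one of −0.19 (edgeR adjusted p = 0.985), with wild type replicate 2 highest at 12.02 CPM and mutant replicate 1 lowest at 8.25 CPM. Magel2 had 32 to 104 counts a heart, with overlapping groups.

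Gnas, which encodes a G protein alpha subunit, was at 31.2, 22.6 and 17.99 CPM in wild type and 19.4, 18.2 and 16.2 CPM in mutant hearts. Wild type replicate 5 lay within the mutant range and the other 2 wild type hearts above it. The log2 fold change was −0.42 (standard error 0.19, edgeR adjusted p = 0.909), and without wild type replicate 5 it was −0.58 (edgeR adjusted p = 0.183). Its exons share 22.0% of their bases with genes on the opposite strand, among them Nespas, which had 22 to 36 counts a heart. Airn, the paternally expressed RNA antisense to Igf2r, was at 20.8, 24.2 and 23.5 CPM in wild type and 23.9, 19.4 and 18.1 CPM in mutant hearts (log2 fold change −0.16, standard error 0.13, edgeR adjusted p = 0.985). Igf2r, the receptor that clears IGF2 and no member of the list, had a log2 fold change of 0.17 (edgeR adjusted p = 0.985), which was −0.14 without wild type replicate 5. Slc22a3, a cation transporter imprinted in placenta, had 27 to 48 counts a heart.

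The remaining 5 genes, Impact, Zrsr1, Peg13, Nap1l5 and Zdbf2, are paternally expressed and lie in none of these domains. Impact, a regulator of translation, had the narrowest relative range of the named genes, at 37.8, 36.7 and 35.0 CPM in wild type and 37.5, 35.9 and 37.3 CPM in mutant hearts (log2 fold change 0.016, standard error 0.091, edgeR adjusted p = 0.994). Zdbf2, a large zinc finger gene, was at 30.5, 32.2 and 14.2 CPM in wild type and 26.5, 35.7 and 29.6 CPM in mutant hearts. Wild type replicate 5 was the low heart, and the log2 fold change of Zdbf2 went from 0.25 to −0.037 without it. Peg13, a noncoding RNA, was at 22.6, 21.2 and 17.97 CPM in wild type and 22.2, 26.7 and 24.3 CPM in mutant hearts (log2 fold change 0.25, standard error 0.13, edgeR adjusted p = 0.928). Zrsr1, related to a splicing factor, lay between 4.42 and 6.94 CPM (log2 fold change −0.093) and Nap1l5, a nucleosome assembly protein-like gene, between 0.675 and 1.33 CPM (log2 fold change 0.26), each with overlapping groups.

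Counted over the 37 genes tested, wild type replicate 5 was the lowest heart for 11 (29.7%), and it was the lowest for 31.1% of all genes tested. These 11 were H19, Peg3, Peg10, Mest, Copg2, Plagl1, Grb10, Ube3a, Impact, Peg13 and Zdbf2. The 10 genes listed as maternally expressed had a median log2 fold change of −0.058, and the 22 tested of those listed as paternally expressed one of −0.075. Without wild type replicate 5 these medians were 0.042 and −0.039. Each of these groups held genes on both sides of 0.

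**Figure D5:**
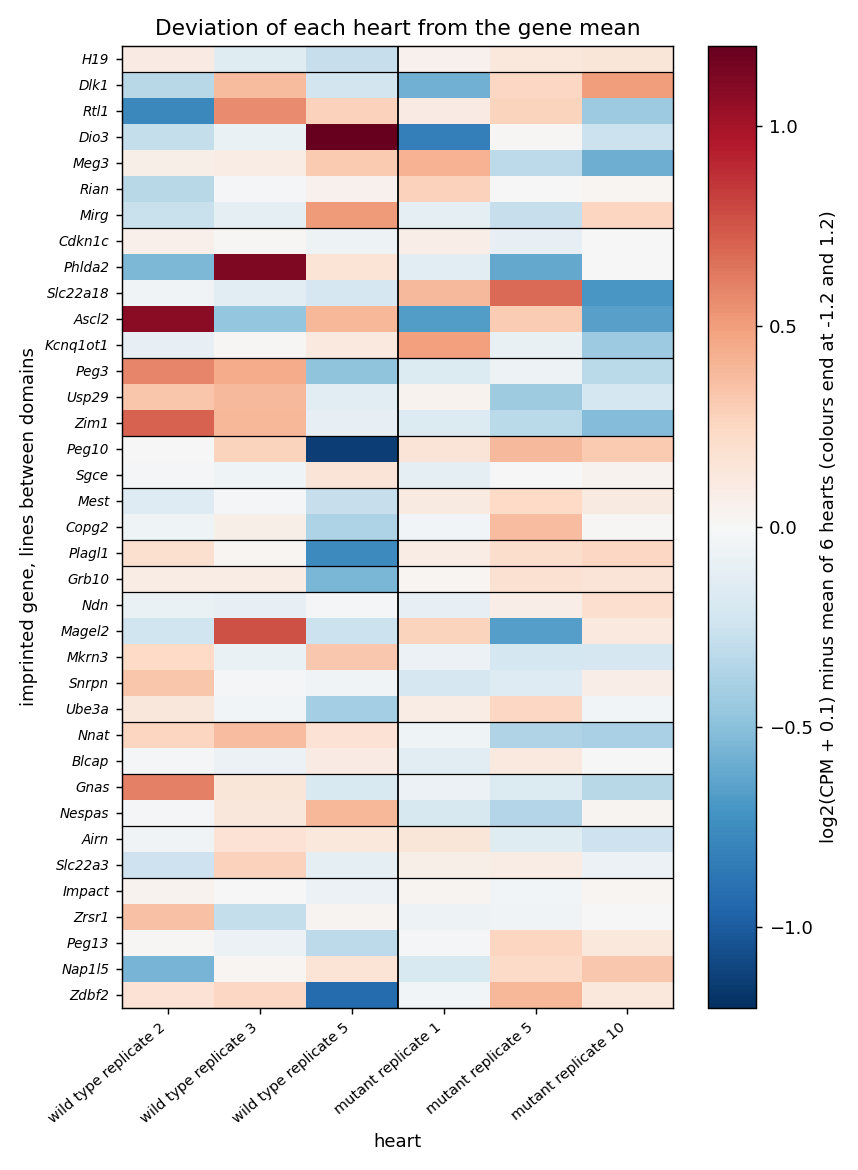
Deviation of each heart (columns) from the mean of the 6 hearts in log2(CPM + 0.1) for the 37 imprinted genes tested (rows, lines between domains), red above and blue below the mean. Wild type replicate 5 has its deepest blue at Peg10, Zdbf2 and Plagl1, and wild type replicates 2 and 3 are red for all 3 genes of the Peg3 domain.

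A further 47 imprinted genes and close neighbours were listed, of which 40 were tested. None of them passed the adjusted threshold in edgeR, and 4 of the 40 had an unadjusted p under 0.05, against 5.73% of all genes (Ddc higher, and Commd1, Calcr and Begain lower in the mutant hearts). The groups did not overlap in CPM for 8 of the 40 (20.0%), 6 of them higher in the mutant hearts, against 11.2% of all genes. Ddc, the aromatic amino acid decarboxylase that makes dopamine and serotonin, lies beside Grb10 and is read from the paternal copy in the embryonic heart. It was at 59.1, 73.8 and 64.4 CPM in wild type and 102, 104 and 142 CPM in mutant hearts. Every mutant heart was above every wild type heart, and the log2 fold change was 0.82 (standard error 0.16), with an adjusted p of 0.273 in edgeR and 9.9e-04 in DESeq2. The ratio of Ddc to Grb10 in CPM was 0.0367, 0.0457 and 0.0622 in wild type and 0.0663, 0.0603 and 0.0842 in mutant hearts. The log2 fold changes of Commd1, Calcr and Begain were −0.46, −1.17 and −0.78, with edgeR adjusted p-values of 0.847, 0.837 and 0.767, and Calcr had at most 2.49 CPM in any heart.

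The factors that set and maintain imprints were a separate list of 26 genes, among them DNA methyltransferases, TET enzymes, ZFP57 and its partners, CTCF and Polycomb subunits. Of these 24 were tested, and none had an unadjusted p under 0.05 in edgeR or an adjusted one in DESeq2. The smallest p was that of Ezh2, the methyltransferase of Polycomb complex PRC2, at 79.1, 73.7 and 58.1 CPM in wild type and 65.3, 64.3 and 60.4 CPM in mutant hearts (log2 fold change −0.15, standard error 0.13, edgeR adjusted p = 0.985). Without wild type replicate 5, the lowest heart for Ezh2, 4 of the 24 factors had an unadjusted p under 0.05, where 12.2% of all genes had one, and none had an adjusted one.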

How the data were processed

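The authors trimmed the paired reads with Trim Galore, aligned them to mm10 with STAR and assigned uniquely mapped reads to genes with featureCounts (GENCODE annotation of GRCm38.p6), while the submitters' processing notes name HTSeq and DESeq2. Whether counting used strand was not stated. The authors deposited raw counts per gene and heart and FPKM values, and each FPKM equals the count over a fixed gene length and the heart's total (largest relative deviation 8.22e-15). All columns were mapped to a heart. Total counts were 44244665 to 56373393, a floor of 3 counts equals 0.0532 to 0.0678 CPM, and limits of this kind cover counting error only.

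Counts were tested with edgeR 4.0.16 (R 4.3.3) by the quasi-likelihood test, with TMM normalization, filterByExpr (minimum count 10, minimum total 15), no covariate, a two-sided test and Benjamini-Hochberg adjustment over all 17473 genes, at an adjusted p of 0.05. CPM uses the TMM library sizes. The standard errors given are not an output of edgeR. Each was derived as the absolute log2 fold change over the square root of the quasi-likelihood F statistic. Alternatives were DESeq2 1.42.0, limma 3.58.1 (voom on counts, trend on log2 of FPKM plus 1 or 0.1), other size factors and filters, Xist as a covariate, removal of the gene length trend by heart (loess span 0.5), and each heart left out. DESeq2 with each heart left out and the length correction without wild type replicate 5 were chosen after seeing the data. The tests were tried on simulated counts with 200 changed genes. Positions and exon overlaps come from GENCODE M21 (GRCm38), to which 46488 of 46983 genes were matched, and sequences from RefSeq.

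The members and lists were chosen with earlier results of these data known. Genes named with values are members with an unadjusted p under 0.05 or separate groups, the 12 highest by mean FPKM, the highest of each domain, listed genes with an unadjusted p under 0.05 or the smallest p, and Igf2, Igf2r and Kcnq1. Other genes with values were picked with those values in view. The labels give 1 embryonic heart per sample, so p-values measure the spread between embryos.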

Additional observations from a re-analysis of the deposited data

How the results depend on the processing

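The direction of Zim1, Nnat, Mest, Peg3 and Ddc was the same under every alternative run, and limma-voom, other size factors, a filter at 1 CPM and Xist as a covariate left the counts of calls at 0. The number of genes called was 132 with DESeq2, 34 with no filter on low counts, 6 with the gene length trend removed, 43 with that trend removed and wild type replicate 5 left out, 0 to 44 with each heart left out in edgeR and 71 to 447 in DESeq2, highest without wild type replicate 5 in both tools and lowest without mutant replicate 5 or 10 in DESeq2. DESeq2 called Nnat with all hearts and without wild type replicate 5 or mutant replicate 1 but not without any other heart, and it called Ddc whichever heart was left out. Imprinted genes called numbered 1 with DESeq2, 2 with the trend removed and wild type replicate 5 left out, and 0 to 4 with each heart left out (edgeR 0 to 2). Those with an unadjusted p under 0.05 numbered 5 with the trend removed, with or without wild type replicate 5, and 2 to 7 with each heart left out (edgeR 2 to 6). Leaving out a heart gave 1 to 6 for the other imprinted genes (2 when wild type replicate 2 was omitted, 1 when mutant replicate 10 was) and 0 to 4 for the imprint factors (4 without wild type replicate 5). The median log2 fold change of the imprinted genes was −0.070 with the trend removed and −0.048 to 0.023 with each heart left out.

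Some log2 fold changes turned, none of them with an adjusted p under 0.05. Cdkn1c was at 0.0056 with no filter and 0.0022 with the Xist covariate. Impact was at −0.039 with the trend removed and at −0.012 and −0.013 in the FPKM fits with pseudocounts of 1 and 0.1, and Kcnq1 was at −0.029 with the Xist covariate. With the trend removed and wild type replicate 5 left out, Sgce was at 0.0047 and Igf2r at −0.13. With each heart left out the ranges were −0.048 to 0.034 for Cdkn1c, −0.082 to 0.41 for Dlk1, −0.018 to 0.043 for Impact, −0.094 to 0.0099 for Sgce, −0.040 to 0.45 for Zdbf2, −0.24 to 0.089 for Zrsr1, −0.14 to 0.44 for Igf2r and −0.047 to 0.25 for Kcnq1. In edgeR they were −0.44 to 0.23 for Magel2, −0.45 to 0.20 for Rtl1, −0.28 to 0.16 for Mirg, −0.27 to 0.22 for Kcnq1ot1, −0.073 to 0.060 for Blcap and −0.070 to 0.25 for Slc22a3. The cause of these changes was not tested. No paired analysis was possible because the sample labels record no litter or pair. The groups share only replicate number 5, and the labels do not say that a shared number marks a pair. With 3 hearts a group, the 10 tested genes with a mean under 1 FPKM had standard errors between 0.24 (Kcnq1ot1) and 0.72 (Ascl2) on the log2 scale, which limits the differences that can be seen in the least counted of them.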
